A study of Mus musculus with 6 samples.

Results

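The genes described are 31 components of blood coagulation, its natural inhibitors and fibrinolysis, chosen by name from the 54682 rows of a liver gene count table. Each name matched 1 Ensembl gene of the GRCm38 annotation, and all 31 passed the filter on low counts that 14145 genes passed. Liver poly(A) RNA was sequenced from 3 Cd44 knockout mice and 3 wild-type mice, 1 library per mouse. The knockout mice were Cd44-/- animals of the line B6.Cg-Cd44tm1Hbg/J, a targeted allele on a C57BL/6 congenic background of the gene for CD44, a cell surface receptor for hyaluronan. The wild-type mice are given in the labels by genotype only. Every mouse was fed ethanol at 5% (vol/vol) in Lieber-DeCarli liquid food for 10 days, was gavaged with 5 g/kg ethanol on day 11 and had its liver collected 9 hours afterwards. Unexposed mice were not analysed here, and each comparison is between genotypes under ethanol. The labels used here do not give the age or sex of the mice.

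Coagulation is a cascade of serine proteases that ends with thrombin cutting fibrinogen into fibrin. Hepatocytes make and secrete most of these proteins, including fibrinogen, prothrombin, antithrombin and plasminogen. Endothelial cells, macrophages and other non-parenchymal cells supply much of the rest, among them von Willebrand factor, thrombomodulin, tissue factor and the plasminogen activators. Fibrinolysis is the reverse step, in which plasmin, activated from plasminogen by tPA or uPA, cuts fibrin. Fibrinogen is also an acute-phase protein whose genes respond to interleukin 6 in hepatocytes.

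Reads assigned to annotated genes ranged from 15429784 to 19293777 per library, and the floor of 3 counts that an undetected gene could still have equals 0.155 to 0.194 CPM. Cd44 (ENSMUSG00000005087) had 1, 0 and 0 counts in knockout mice 1, 2 and 3, against 590, 175 and 568 counts in wild-type mice 1, 2 and 3, so no library went against its label. The hepatocyte marker albumin (Alb) was read at 1149479 to 1439956 counts in knockout and 1238808 to 1415802 counts in wild-type libraries. Levels are CPM, depth-scaled counts from library sizes adjusted by TMM, in mouse order 1, 2, 3. Means carry the SD with n = 3 per genotype. Fold changes are knockout over wild-type on the log2 scale, each with the standard error or the 95% interval of edgeR's quasi-likelihood fit. Levels of different genes are compared only in RPKM, CPM per kilobase of exon.

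The plot of fold changes by gene shows differences in both directions, also within roles. The fibrinogen chains and factor V stood higher in the knockout livers, and the plasminogen activators, the urokinase receptor and the endothelial protein C receptor stood lower. Most liver-secreted factors lay close to 0. None of the 31 genes passed the threshold of an adjusted p of 0.05 over all genes in edgeR, where 0.0141% of all tested genes did, and the smallest adjusted p among them was 0.217. Limma-voom called 0 of the 31 as well. DESeq2 called 1, Plaur, which was lower, where it called 2.15% of all genes and 1.41% as lower. Below an unadjusted edgeR p of 0.05 lay 8 of the 31 genes, where 12.8% of all genes did. Of these, 4 were higher (5.22% of all genes) and 4 were lower (7.59% of all genes), and limma-voom also gave 8 at its own unadjusted p of 0.05. The count was 5 without knockout 1 and 5 without wild-type 1. The 3 knockout values did not overlap the 3 wild-type values for 8 of the 31 genes, where 18.2% of all genes did not overlap. Of these 8, 4 were higher (8.81% of all genes) and 4 were lower (9.42% of all genes). The median log2 fold change was 0.11 over the 31 genes and −0.0075 over all tested genes. By role the medians were 0.63 for 5 genes of fibrin formation, 0.07 for 5 of initiation and the common pathway, 0.06 for 3 of the intrinsic tenase and 0.11 for 5 of the contact system. They were −0.24 for 6 anticoagulants, −1.14 for plasminogen with its 2 activators and their receptor, and 0.16 for the 3 genes that restrain plasmin or bind plasminogen.

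**Figure D1:**
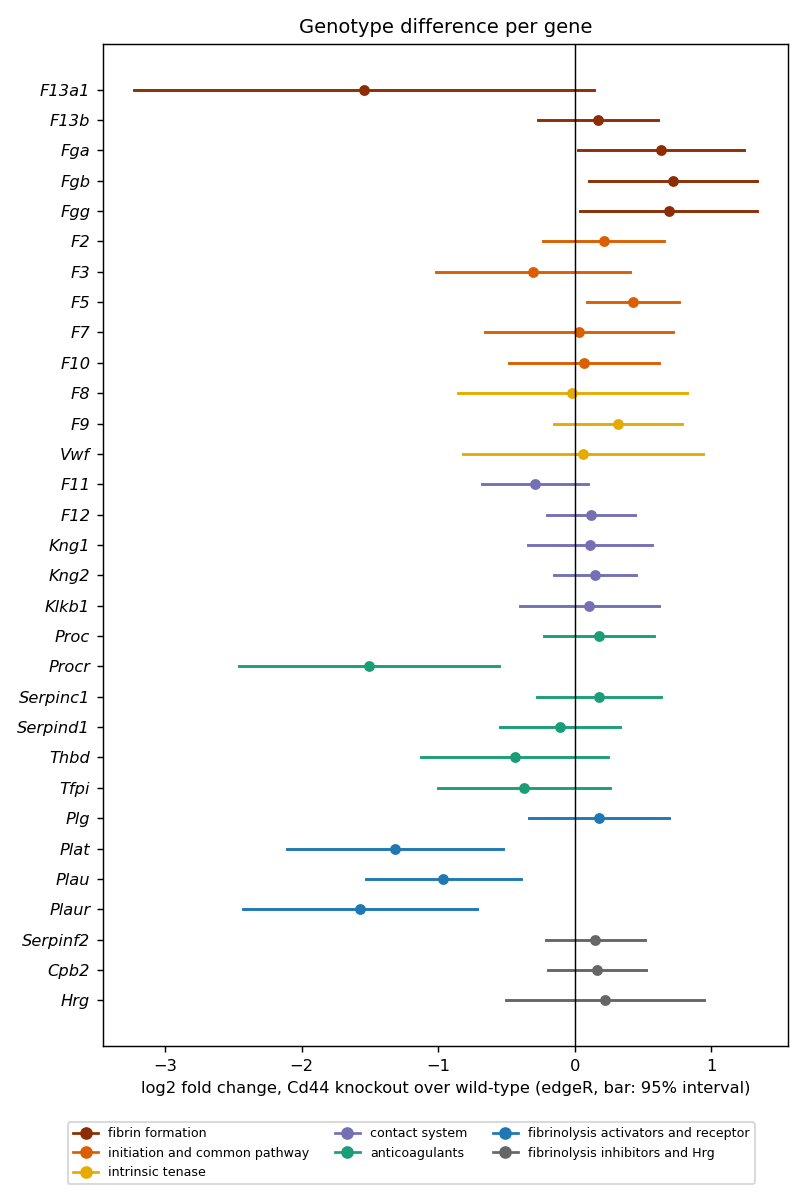
Log2 fold change of each of the 31 genes, knockout over wild-type (horizontal axis), with the 95% interval of the edgeR fit as a bar and the role of each gene as colour, n = 3 mice per genotype. The intervals of Fga, Fgb, Fgg and F5 lie above 0 and those of Procr, Plat, Plau and Plaur below 0, all before adjustment over 14145 genes.

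Fibrinogen, the substrate of thrombin, is built from 3 chains whose genes lie side by side on mouse chromosome 3. Fga, the alpha chain (ENSMUSG00000028001; GRCm38, chr3:83026076-83033627, plus strand), had 5686, 3064 and 3823 CPM in knockout livers, against 2754, 2349 and 3002 CPM in wild-type livers. Fgb, the beta chain (ENSMUSG00000033831; chr3:83040141-83049863, minus strand), had 5360, 2696 and 3790 CPM in knockout livers, against 2301, 2319 and 2587 CPM in wild-type livers. Fgg, the gamma chain (ENSMUSG00000033860; chr3:83007724-83015049, plus strand), had 4230, 1994 and 2815 CPM in knockout livers, against 1782, 1748 and 2077 CPM in wild-type livers. Knockout 1 was the highest of the 6 mice for each chain and knockout 2 the lowest knockout mouse. The values of the genotypes were separate for Fga and Fgb, by a narrow margin set by knockout 2, and overlapped for Fgg.

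The means were 4191 ± 1349 CPM in knockout and 2702 ± 329 CPM in wild-type livers for Fga (log2 fold change 0.63 ± 0.26, edgeR unadjusted p = 0.0430, adjusted p = 0.374). For Fgb they were 3949 ± 1339 CPM in knockout and 2402 ± 160 CPM in wild-type livers (0.72 ± 0.27, edgeR unadjusted p = 0.0275, adjusted p = 0.321). For Fgg they were 3013 ± 1131 CPM in knockout and 1869 ± 181 CPM in wild-type livers (0.69 ± 0.28, edgeR unadjusted p = 0.0397, adjusted p = 0.366). Without knockout 1 the log2 fold changes were 0.36 for Fga, 0.45 for Fgb and 0.38 for Fgg, so much of the size of the difference came from that mouse. The chains kept a near-constant proportion within each liver: Fga over Fgb was 1.06, 1.14 and 1.01 in knockout and 1.20, 1.01 and 1.16 in wild-type mice, and Fgg over Fgb was 0.789, 0.740 and 0.743 in knockout and 0.774, 0.754 and 0.803 in wild-type mice. The 3 chains together took 1.53%, 0.775% and 1.04% of the normalised counts in knockout mice, against 0.684%, 0.642% and 0.767% in wild-type mice. Per length they were the highest of the 31 genes in both genotypes, with Fgg at 1439 ± 540 RPKM in knockout and 893 ± 86.4 RPKM in wild-type livers.

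Because the 3 chains varied together across mice, the 250 bases upstream of each RefSeq start (build GRCm38.p6) are shown, 5′ to 3′ in the direction of transcription. Capitals mark matches, on either strand, to the IL-6 response element core CTGGGA, the HNF1 site core GTTAAT and the C/EBP core TTNNGNAA. No matches overlap each other. The windows are chr3:83025903-83026152 (plus strand) for Fga, chr3:83049864-83050113 (minus strand) for Fgb and chr3:83007474-83007723 (plus strand) for Fgg, and the RefSeq start of Fga lies within the GENCODE model of the gene.
Fga: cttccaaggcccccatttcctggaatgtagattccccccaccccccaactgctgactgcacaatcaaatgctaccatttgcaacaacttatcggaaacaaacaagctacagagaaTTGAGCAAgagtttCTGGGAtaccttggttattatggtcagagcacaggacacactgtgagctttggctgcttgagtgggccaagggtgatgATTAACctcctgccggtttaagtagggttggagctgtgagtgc
Fgb: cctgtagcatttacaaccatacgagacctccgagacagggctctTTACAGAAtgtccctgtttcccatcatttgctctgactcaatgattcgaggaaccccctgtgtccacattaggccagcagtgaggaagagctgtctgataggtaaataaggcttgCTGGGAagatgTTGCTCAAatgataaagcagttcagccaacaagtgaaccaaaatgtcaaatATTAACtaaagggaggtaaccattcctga
Fgg: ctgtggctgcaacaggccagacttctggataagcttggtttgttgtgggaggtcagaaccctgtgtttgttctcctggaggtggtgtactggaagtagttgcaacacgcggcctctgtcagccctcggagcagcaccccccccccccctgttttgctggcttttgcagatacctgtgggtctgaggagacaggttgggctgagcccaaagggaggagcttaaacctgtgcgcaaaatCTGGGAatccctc
Counted back from the base before the start as −1, CTGGGA lay at −121 to −116 in Fga, at −91 to −86 in Fgb and at −13 to −8 in Fgg. GTTAAT was found, on the opposite strand, at −43 to −38 in Fga and −29 to −24 in Fgb. TTNNGNAA was found at −135 to −128 in Fga and, on the opposite strand, at −206 to −199 and −80 to −73 in Fgb. TATAAA, the TATA box, was also searched and had no match in these 3 windows. Promoters of the same length were listed for 24 of the 31 genes. CTGGGA was present in 9 of the 24 (37.5%) and in 26.8% of all 27025 listed promoters. GTTAAT was present in 3 (12.5%, all promoters 6.52%), TTNNGNAA in 12 (50%, all promoters 36.9%) and TATAAA in 2 (8.33%, all promoters 13%). Such short matches describe the letters only.

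Factor XIII crosslinks fibrin, and its subunits differed in level per length, at 59.7 RPKM for F13b and 0.169 RPKM for F13a1 over the 6 mice. F13b, the carrier subunit made in the liver, averaged 160 ± 16.0 CPM in knockout and 142 ± 36.5 CPM in wild-type livers (log2 fold change 0.17, interval −0.27 to 0.61). F13a1, the catalytic subunit, which macrophages and megakaryocytes make, was the least abundant of the 31 genes per length. It had 11, 17 and 1 counts in knockout libraries, against 24, 48 and 15 counts in wild-type libraries (log2 fold change −1.55, interval −3.23 to 0.14, edgeR adjusted p = 0.428). The highest wild-type value was that of wild-type 2, and the genotypes overlapped.

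**Figure D2:**
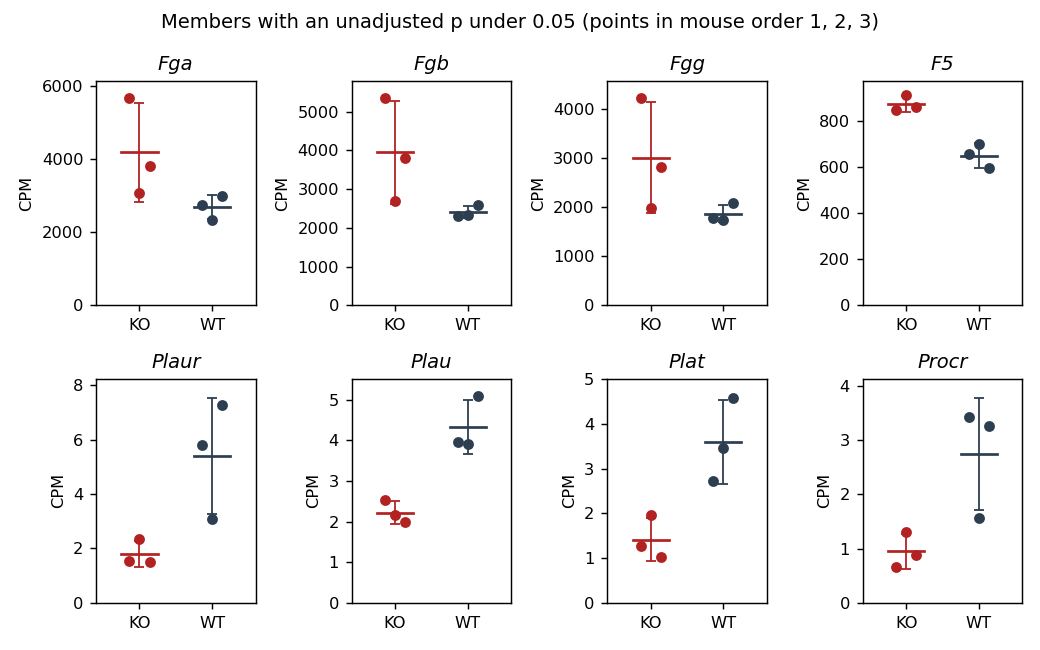
CPM of each mouse (points, mouse 1 to 3 from left to right) for the 8 genes with an unadjusted edgeR p under 0.05, knockout left and wild-type right; the line is the mean and the bar the SD, n = 3, and the vertical axes start at 0. Knockout 1 stands apart for Fga, Fgb and Fgg at 5686, 5360 and 4230 CPM, while the 4 lower genes are each below 8 CPM in every mouse.

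Among the genes of initiation and the common pathway, factor V stood out. F5, the cofactor that accelerates thrombin formation (ENSMUSG00000026579; chr1:164151838-164220277), had 847, 910 and 860 CPM in knockout livers, against 657, 698 and 593 CPM in wild-type livers. All 3 knockout values exceeded all 3 wild-type values, with a spread in each genotype that was small beside the gap. The means were 872 ± 33.7 CPM in knockout and 649 ± 52.7 CPM in wild-type livers (log2 fold change 0.43 ± 0.15, edgeR unadjusted p = 0.0198, adjusted p = 0.297, DESeq2 adjusted p = 0.0618). The fold change stayed between 0.36 and 0.49 with each library left out in turn.

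F2, which encodes prothrombin, had 2055, 1993 and 2178 CPM in knockout livers, against 1771, 2124 and 1484 CPM in wild-type livers (log2 fold change 0.21, interval −0.23 to 0.65). F10, the protease of the prothrombinase complex, averaged 392 ± 37.3 CPM in knockout and 374 ± 126 CPM in wild-type livers (0.07, interval −0.48 to 0.62). F7, the protease that binds tissue factor, averaged 98.5 ± 16.3 CPM in knockout and 96.5 ± 41.2 CPM in wild-type livers (0.03, interval −0.66 to 0.72). For F2, F10 and F7 the highest wild-type value was in wild-type 2 and the lowest in wild-type 3, and the knockout values lay between them except for F2 in knockout 3. F3, tissue factor itself, the membrane protein that starts the cascade, was low at 5.78, 4.81 and 2.88 CPM in knockout livers, against 4.02, 6.33 and 6.32 CPM in wild-type livers (−0.30, interval −1.01 to 0.41).

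The intrinsic tenase joins the protease factor IX to its cofactor factor VIII, which circulates bound to von Willebrand factor. F9 averaged 203 ± 27.6 CPM in knockout and 163 ± 41.7 CPM in wild-type livers (log2 fold change 0.32, interval −0.15 to 0.78). F8, made by sinusoidal endothelial cells, had 15.1, 10.9 and 7.95 CPM in knockout livers, against 16.8, 10.9 and 6.67 CPM in wild-type livers (−0.02, interval −0.86 to 0.82). Vwf, an endothelial and platelet gene, had 16.7, 17.9 and 9.80 CPM in knockout livers, against 12.6, 22.0 and 8.25 CPM in wild-type livers (0.06, interval −0.82 to 0.94). Both genes were lowest in mouse 3 of each genotype, and these intervals leave room for a difference of over 1.5-fold either way.

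The contact system starts the intrinsic pathway and releases bradykinin from kininogen. F12, the first protease, averaged 631 ± 29.3 CPM in knockout and 580 ± 37.7 CPM in wild-type livers (log2 fold change 0.12, interval −0.20 to 0.44). Kng1 and Kng2 encode kininogens. Kng1 averaged 2081 ± 149 CPM in knockout and 1928 ± 372 CPM in wild-type livers (0.11, interval −0.35 to 0.57). Kng2 had 399, 394 and 400 CPM in knockout livers, against 333, 387 and 355 CPM in wild-type livers (0.15, interval −0.15 to 0.45), with no overlap between genotypes but a small gap. The kininogen transcripts share 9.77% of the 75-base stretches of Kng1 and 10.8% of those of Kng2, 75 bases being a length set for this comparison. Reads lying wholly within shared sequence could not be assigned to either gene with certainty. Klkb1, plasma prekallikrein, averaged 87.2 ± 11.7 CPM in knockout and 81.0 ± 25.9 CPM in wild-type livers (0.11, interval −0.40 to 0.62). F11, the next protease, was the member of this group with a lower mean, at 38.6, 28.8 and 31.2 CPM in knockout livers, against 35.8, 48.6 and 36.5 CPM in wild-type livers (−0.29, interval −0.68 to 0.10).

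**Figure D3:**
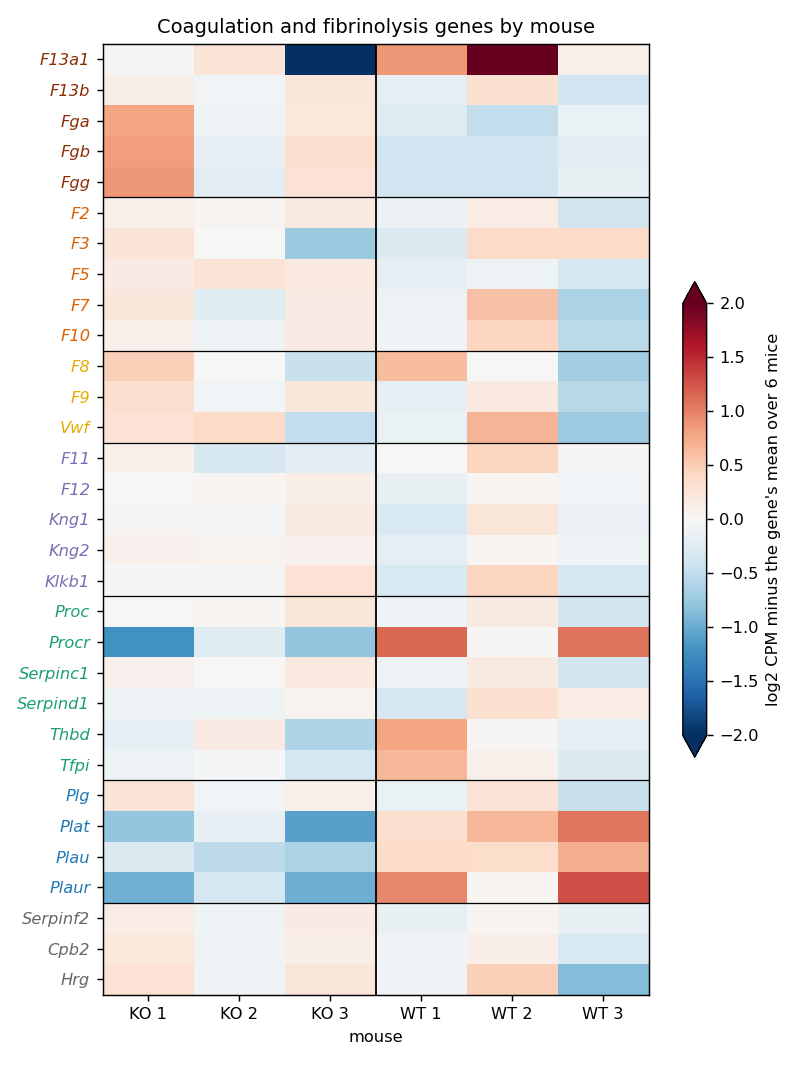
Heat map of log2 CPM minus the gene's mean over all 6 mice, with genes in rows (blocks by role: fibrin formation, initiation and common pathway, intrinsic tenase, contact system, anticoagulants, fibrinolysis activators and receptor, fibrinolysis inhibitors with Hrg) and mice in columns, knockout left; colours saturate at 2. The fibrinogen rows are darkest in knockout 1, and the Procr, Plat, Plau and Plaur rows are blue in all 3 knockout mice.

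Of the 6 anticoagulant genes, Procr, Thbd, Tfpi and Serpind1 were lower in mean in knockout livers, and Proc and Serpinc1 were higher. Procr, the endothelial receptor that presents protein C for activation (ENSMUSG00000027611; chr2:155751117-155755471), had 0.664, 1.3 and 0.891 CPM in knockout livers, against 3.43, 1.57 and 3.26 CPM in wild-type livers. The genotypes did not overlap, although wild-type 2 lay close to knockout 2. These values rest on 10, 26 and 13 counts in knockout and 63, 24 and 64 counts in wild-type libraries. The log2 fold change was −1.51 ± 0.41 (edgeR unadjusted p = 0.00648, adjusted p = 0.229, DESeq2 adjusted p = 0.0837).

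Thbd, thrombomodulin, which turns thrombin towards protein C, had 14.5, 18.1 and 10.6 CPM in knockout livers, against 28.0, 16.4 and 14.3 CPM in wild-type livers (log2 fold change −0.44, interval −1.13 to 0.24). Tfpi, the inhibitor of the tissue factor complex, had 5.05, 5.26 and 4.25 CPM in knockout livers, against 8.59, 5.81 and 4.48 CPM in wild-type livers (−0.37, interval −1.0 to 0.26). For both, wild-type 1 was the highest of the 6 mice and the genotypes overlapped. Without wild-type 1 the values were −0.09 for Thbd and −0.08 for Tfpi. Proc, protein C, averaged 423 ± 39.6 CPM in knockout and 374 ± 70.8 CPM in wild-type livers (0.18, interval −0.23 to 0.58). Serpinc1, antithrombin, averaged 2295 ± 145 CPM in knockout and 2033 ± 378 CPM in wild-type livers (0.17, interval −0.28 to 0.63). Serpind1, heparin cofactor II, averaged 478 ± 30.8 CPM in knockout and 514 ± 116 CPM in wild-type livers (−0.11, interval −0.55 to 0.33).

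Procr, Thbd and Tfpi lie on chromosome 2, as does F2, at 52.8, 45.5, 18.3 and 11.2 Mb from Cd44. An effect of the Cd44 allele and one of linked sequence carried with it cannot be told apart for these 4 genes. The same holds for Thbs1 and Adamts13, described below, which are on this chromosome too. The strain of the wild-type mice is not given, so background differences at other genes cannot be judged.

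Of the 31 genes, Plaur, Plau and Plat had the smallest unadjusted p values in edgeR, all 3 lower in knockout livers. Plaur, the urokinase receptor, carried by macrophages and neutrophils (ENSMUSG00000046223; chr7:24462484-24475968), had 1.53, 2.35 and 1.51 CPM in knockout livers, against 5.82, 3.07 and 7.29 CPM in wild-type livers. Plau, urokinase or uPA (ENSMUSG00000021822; chr14:20836660-20843385), had 2.52, 2.15 and 1.99 CPM in knockout livers, against 3.97, 3.92 and 5.10 CPM in wild-type livers. Plat, tissue plasminogen activator or tPA, largely an endothelial product (ENSMUSG00000031538; chr8:22757727-22782844), had 1.26, 1.95 and 1.03 CPM in knockout livers, against 2.72, 3.46 and 4.59 CPM in wild-type livers. For all 3 genes every knockout value was under every wild-type value.

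The means were 1.80 ± 0.483 CPM in knockout and 5.39 ± 2.14 CPM in wild-type livers for Plaur (log2 fold change −1.57 ± 0.37, edgeR unadjusted p = 0.00290, adjusted p = 0.217, DESeq2 adjusted p = 0.0177). For Plau they were 2.22 ± 0.274 CPM in knockout and 4.33 ± 0.666 CPM in wild-type livers (−0.96 ± 0.25, edgeR unadjusted p = 0.00441, adjusted p = 0.217). For Plat they were 1.41 ± 0.481 CPM in knockout and 3.59 ± 0.940 CPM in wild-type livers (−1.31 ± 0.34, edgeR unadjusted p = 0.00499, adjusted p = 0.220). The 95% intervals ran from −2.43 to −0.71 for Plaur, −1.53 to −0.40 for Plau and −2.11 to −0.52 for Plat. The unadjusted p stayed under 0.05 for these 3 genes and for Procr with each library left out in turn, between 0.000332 and 0.0288. Plaur passed over all genes without wild-type 2, the wild-type mouse with the lowest value (edgeR adjusted p = 0.0430), and in none of the other 5 such fits. The libraries held 15 to 143 counts per gene for these 3 genes, which limits the precision.

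Plg, the plasminogen that these activators cut, was abundant and overlapped between genotypes, at 2022, 1641 and 1821 CPM in knockout livers, against 1549, 2055 and 1241 CPM in wild-type livers (log2 fold change 0.18, interval −0.34 to 0.69). The genes that restrain plasmin were similar. Serpinf2, the plasmin inhibitor alpha-2-antiplasmin, averaged 826 ± 79.5 CPM in knockout and 744 ± 62.1 CPM in wild-type livers (0.15, interval −0.21 to 0.51). Cpb2, the carboxypeptidase TAFI that protects fibrin from plasmin, averaged 275 ± 25.5 CPM in knockout and 245 ± 37.4 CPM in wild-type livers (0.16, interval −0.20 to 0.52). Hrg, a plasma glycoprotein that binds plasminogen and heparin, had 879, 680 and 850 CPM in knockout livers, against 681, 992 and 394 CPM in wild-type livers (0.22, interval −0.50 to 0.94). The wild-type range of Hrg enclosed all 3 knockout values.

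The level of a gene per length went with the sign of its difference. No gene lay between 4.56 and 16.0 RPKM, averaged over the 6 mice, and the genes were divided at 10 RPKM after their values were seen. Of the 21 genes above it, 19 were higher in mean in knockout livers; their 21 log2 fold changes had a median of 0.17 and a range of −0.29 to 0.72. Of the 10 genes below it, 9 were lower in mean, and the 10 values had a median of −0.70 and a range of −1.57 to 0.06. The 21 abundant genes all encode plasma proteins, F11 and Klkb1 being the lowest of them in level. The 10 others are F3, F8, F13a1, Procr, Plat, Plau, Plaur, Vwf, Thbd and Tfpi, some of which, such as F8 and Vwf, also encode circulating proteins. For 18 of the 21 abundant genes the 95% interval lay within a 2-fold difference in either direction, and Fga, Fgb and Fgg were the exceptions. An interval within 2-fold was found for 2 of the 10 others and for 9693 of all 14145 tested genes.

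**Figure D4:**
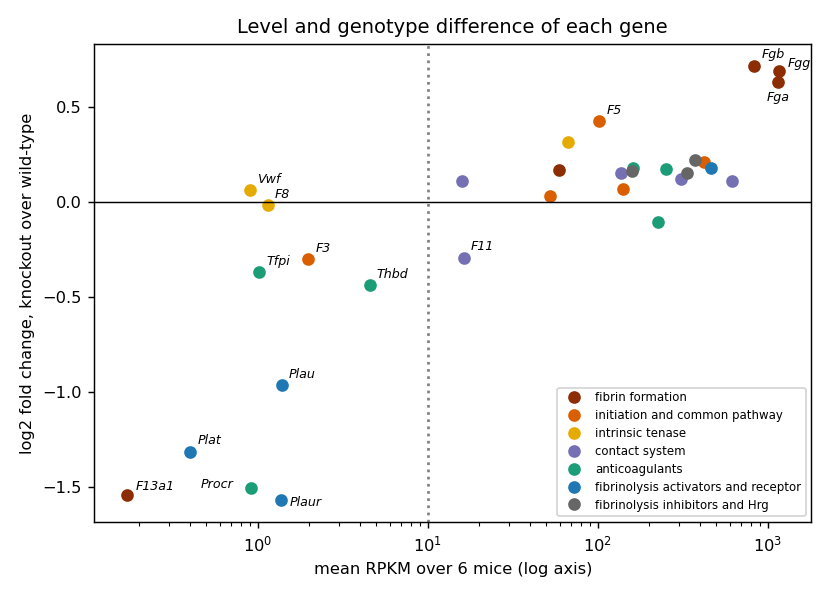
Mean RPKM over the 6 mice (horizontal, log axis) against log2 fold change, knockout over wild-type (vertical), 1 point per gene coloured by role; the dotted line marks 10 RPKM. The 3 fibrinogen chains are at the upper right, and Plau, Plat, Procr, Plaur and F13a1, at 1.38 RPKM or less, are at the lower left.

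The abundant genes varied together among the wild-type mice. Wild-type 2 was the highest wild-type mouse for 18 of the 21 (85.7%, all tested genes 32.4%) and wild-type 3 the lowest for 13 (61.9%, all tested genes 34.7%). Among knockout mice, knockout 2 was the lowest for 18 of the 21 (all tested genes 4520 of 14145). The SD of log2 CPM was larger in wild-type than in knockout mice for 17 of the 21 (81.0%, all tested genes 66.9%), with a median SD of 0.14 in knockout and 0.27 in wild-type mice. The hepatocyte marker genes, 7 in number, summed to 98865 to 124440 CPM in knockout and 89433 to 109147 CPM in wild-type livers. Of the wild-type mice, wild-type 3 had the lowest sum and wild-type 2 the highest. Alb, the largest part of the sum, had 77004, 80852 and 63868 CPM in wild-type mice 1, 2 and 3. Ttr, Apoa2, Ahsg and Serpina1c kept this order. Apoa1, at 6397, 5784 and 7885 CPM, and Hnf4a, at 703, 603 and 576 CPM, did not. All but Alb were named after their values were seen. Of these 7 markers, 6 were higher in mean in knockout livers (median log2 fold change 0.25), where 6921 of all 14145 tested genes were.

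Markers of other cell types were read beside the low-abundance genes. The 9 macrophage and Kupffer cell markers summed to 279, 308 and 279 CPM in knockout livers, against 944, 345 and 789 CPM in wild-type livers. All 9 were lower in mean in knockout livers, and 8 had an unadjusted edgeR p under 0.05, where 7.59% of all genes were lower at that p. Among the 8 was Adgre1, which encodes F4/80 (log2 fold change −1.56), while Clec4f was not (−0.62). None of the 9 passed an adjusted p of 0.05 in edgeR, and limma-voom gave 6 at its own unadjusted p of 0.05. DESeq2 called 5, all lower (1.41% of all genes). The macrophage sum of wild-type 2, 345 CPM, was the wild-type sum nearest to the knockout sums, and it was above all of them. In that mouse Plau at 3.92 CPM, Plat at 3.46 CPM, Plaur at 3.07 CPM and Procr at 1.57 CPM were also each above all knockout values. This restates that these genes did not overlap between genotypes. The 8 endothelial markers summed to 278 to 394 CPM in knockout and 264 to 499 CPM in wild-type livers. Of these 8, 5 were lower in mean and 3 higher, and Stab2 gave −0.24. Lower with an unadjusted edgeR p under 0.05 was 1 of the 8 (7.59% of all genes), Stab1 (−0.44), named after its values were seen. Monocyte markers, 4 in number, summed to 4.73 to 7.81 CPM in knockout and 8.05 to 16.4 CPM in wild-type livers, all lower in mean. The 6 platelet markers, of which 2 passed the filter, summed to 3.52 to 5.21 CPM in knockout and 5.74 to 6.58 CPM in wild-type livers. Of the others, Gp1bb was at 0 in all 6 libraries, and Ppbp had 1, 4 and 2 counts in knockout and 4, 4 and 0 counts in wild-type libraries. The 6 stellate and fibroblast markers summed to 360 to 445 CPM in knockout and 395 to 589 CPM in wild-type livers, and Lrat gave −0.30. Of these 6, 5 were lower in mean and 2 were lower with an unadjusted edgeR p under 0.05 (7.59% of all genes). These were Col3a1 (−1.47) and Col1a1 (−1.30), both named after their values were seen. The 4 cholangiocyte markers summed to 8.22 to 10.8 CPM in knockout and 12.4 to 16.4 CPM in wild-type livers, and Krt19 gave −1.24. The 4 neutrophil markers, of which 2 passed the filter, summed to 0.601 to 2.26 CPM in knockout and 2.35 to 3.57 CPM in wild-type livers, and S100a8 gave −0.64. S100a9, named after its values were seen, gave −1.58 (edgeR unadjusted p = 0.0117). Mpo, another of the 4, was at 0 in every library but wild-type 3, which had 2 counts. The part of these cell types in the values of Plaur, Plau, Plat and Procr was not tested, and fewer cells of a type and less RNA per cell cannot be told apart in whole liver.

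Within each genotype the sum of the acute-phase markers ranked the mice as fibrinogen did, and the sums overlapped between genotypes. Single markers did not all keep this order. Hp, the largest part of the sum, had 3022, 2896 and 6009 CPM in wild-type mice 1, 2 and 3. Saa1 had 134, 52.0 and 37.8 CPM in the same mice. The 6 acute-phase genes summed to 5347, 3916 and 4575 CPM in knockout livers, against 4235, 3747 and 8293 CPM in wild-type livers, and 5 of the 6 were lower in mean in knockout livers. Wild-type 3, the mouse with the highest acute-phase sum, had 7666 CPM of the 3 fibrinogen chains together, against 7753 to 15275 CPM in knockout mice. The part of the acute-phase response in the fibrinogen values was not tested.

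Further genes of the pathway were taken from a list of 37, of which 27 passed the filter on low counts. None passed an adjusted p of 0.05 in edgeR, and limma-voom called 0. Unadjusted p values under 0.05 were obtained for 6 genes in edgeR (12.8% of all genes), 2 higher (5.22% of all genes) and 4 lower (7.59% of all genes), and for 5 in limma-voom. DESeq2 called 3 (2.15% of all genes), 1 higher and 2 lower, among them Tfpi2 and Thbs1. The median log2 fold change of the 27 was −0.04, against −0.0075 over all tested genes.

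Thbs1, thrombospondin 1, a platelet and matrix glycoprotein, had 3.32, 1.95 and 0.823 CPM in knockout livers, against 11.7, 6.46 and 7.95 CPM in wild-type livers (log2 fold change −2.10 ± 0.44, edgeR adjusted p = 0.217, DESeq2 adjusted p = 0.00100). It lies 15.2 Mb from Cd44. Tfpi2, a Kunitz-type inhibitor of plasmin and other proteases, had 37.4, 32.8 and 42.2 CPM in knockout livers, against 21.6, 27.3 and 20.5 CPM in wild-type livers (0.70 ± 0.16, edgeR adjusted p = 0.217, DESeq2 adjusted p = 0.0301). Both genes separated the genotypes without overlap. Of the 27 genes tested from this list, 4 lay higher without overlap (8.81% of all genes) and 4 lower (9.42% of all genes).

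**Figure D5:**
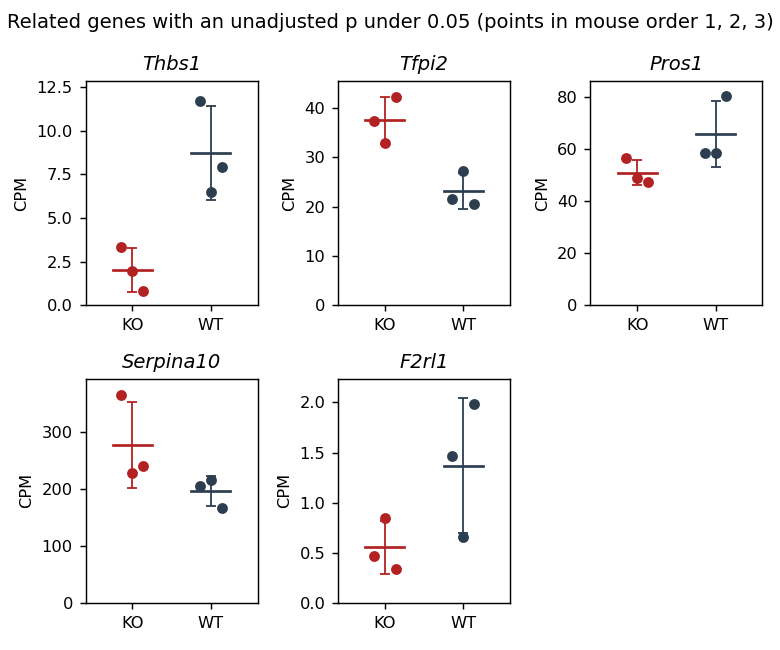
CPM of each mouse (points, mouse 1 to 3 from left to right) for 5 further pathway genes with an unadjusted edgeR p under 0.05, knockout left and wild-type right; the line is the mean and the bar the SD, n = 3. Thbs1 stays at or below 3.32 CPM in knockout mice and at or above 6.46 CPM in wild-type mice, and F2rl1 is the gene whose genotypes overlap.

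Of the other genes, Pros1, the protein S cofactor of activated protein C, averaged 50.8 ± 4.82 CPM in knockout and 65.6 ± 12.7 CPM in wild-type livers (log2 fold change −0.37, edgeR unadjusted p = 0.0474). Serpina10, the protein Z-dependent inhibitor of factor Xa, averaged 277 ± 75.4 CPM in knockout and 196 ± 25.9 CPM in wild-type livers (0.50, edgeR unadjusted p = 0.0414), with its highest value, 364 CPM, in knockout 1. F2rl1, a protease-activated receptor, averaged 0.553 ± 0.266 CPM in knockout and 1.37 ± 0.673 CPM in wild-type livers (−1.27, edgeR unadjusted p = 0.0429). The F2rl1 values rest on 7, 17 and 5 counts in knockout and 27, 10 and 39 counts in wild-type libraries. The vitamin K cycle enzymes were close in level between genotypes, with Ggcx, the carboxylase, at 58.6 ± 8.43 CPM in knockout and 59.9 ± 6.12 CPM in wild-type livers and Vkorc1, the reductase, at 8.74 ± 2.60 CPM in knockout and 6.99 ± 1.65 CPM in wild-type livers. Adamts13, the protease of von Willebrand factor, averaged 8.46 ± 0.665 CPM in knockout and 7.50 ± 0.665 CPM in wild-type livers. F2r, the thrombin receptor, averaged 25.6 ± 3.03 CPM in knockout and 27.7 ± 5.33 CPM in wild-type livers, and Serpine2, protease nexin-1, averaged 3.31 ± 1.10 CPM in knockout and 4.01 ± 1.25 CPM in wild-type livers. Anxa2, a cell surface receptor for tPA and plasminogen, had 29.1, 34.3 and 20.7 CPM in knockout livers, against 58.5, 22.4 and 106 CPM in wild-type livers (−1.16, interval −2.40 to 0.09). The genotypes overlapped through wild-type 2, the lowest wild-type mouse.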

How the data were processed

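The authors deposited raw read counts per Ensembl gene, 1 library per mouse, without normalisation. The submitters' processing notes list featureCounts 1.5.0-p3, HISAT2 2.0.5 and StringTie 1.3.3b with the build GRCm38.p6. Strand setting, annotation release and the handling of reads with several positions are not given in these sources. Of the 31 genes, Serpinc1, Plg, F5, Fgg and F13a1 overlap an opposite-strand gene with far fewer counts, and Klkb1 a same-strand model with almost none. Klkb1 shares 42.4% of its 75-base stretches with that model, and Serpinc1 shares 32.6% with its opposite-strand gene. How reads from shared stretches were counted is not known, which limits the levels of these genes. The 150 rows with no gene name (0.273% to 0.509% of a library) were left out. Total counts were 15493009 to 19346623 per library, and floors cover counting error only.

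Symbols, positions and exon lengths came from GENCODE M21 (GRCm38), which matched 54495 of 54682 rows. One listed hepatocyte marker, Tf, matched no gene. Counts were filtered by filterByExpr, scaled by TMM and compared by genotype in edgeR 4.0.16 (quasi-likelihood F test, robust moderation; R 4.3.3), two-sided, with Benjamini-Hochberg adjustment over 14145 genes. DESeq2 1.42.0, limma 3.58.1 (voom), RLE scaling, other filters, a fit without robust moderation, mouse number as a block and leaving out each library were alternatives. The fit was tested on simulated data. The labels name separate mice, which were taken as replicates. With 3 against 3 mice an exact permutation test cannot go below p = 0.1, so p values come from these models.

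The genes, the lists of further pathway genes and of markers, and the rule for named genes were chosen with earlier results of these data known. Named were all 31 genes, Cd44, 8 fixed pathway genes and any other pathway gene with an unadjusted p under 0.05, and 8 defining markers. Of the pathway genes, 1 is not reported here by name, though it is in the counts over the list. Upstream sequences were taken from RefSeq (GRCm38.p6), less the 50 bases after the start.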

Additional observations from a re-analysis of the deposited data

How the results depend on the processing

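The number of genes called over the whole table was 2 in the edgeR fit, 6 with no low-count filter, 300 with DESeq2, 0 with limma-voom, 1 with mouse number as a replicate block, and from 0 to 151 with each library left out in turn (151 without wild-type 2, 0 without knockout 2 or knockout 3). Of the 31 coagulation genes, 0 were called, 1 with DESeq2 and from 0 to 1 with a library left out. At an unadjusted p under 0.05 the count was 8, with the block 5, and from 5 to 9 with a library left out. Of the further pathway genes 0 were called, 3 with DESeq2 and from 0 to 2 with a library left out. The median log2 fold change of the 31 was 0.11 and ran from −0.023 without wild-type 3 to 0.29 without wild-type 2. Same-numbered mice did not deviate together (r of −0.016, −0.018 and −0.010 over 14145 genes), so the block joins mice that share only a number.

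Directions held for the 44 genes with a tested value under RLE scaling, no filter, the fit without robust moderation and DESeq2, and for the 42 of them that passed a filter of 1 CPM in 3 libraries. The call of Cd44 was lost without any 1 knockout library (edgeR adjusted p 0.0977 to 0.331) and with limma-voom. The log2 fold change of F8, −0.02, was 0.047 with limma-voom and 0.028 with the block. With a library left out the sign reversed in these genes, all close to 0: F7 (−0.21 to 0.42), F8 (−0.30 to 0.37), F10 (−0.14 to 0.36), Serpind1 (−0.27 to 0.050), Kng1 (−0.00036 to 0.28), Klkb1 (−0.023 to 0.41), Vwf (−0.21 to 0.52), Hrg (−0.059 to 0.59), Ggcx (−0.14 to 0.059) and F2r (−0.21 to 0.052). The cause was not tested. Depth limits the values of F13a1, Procr, Plat, Plau and Plaur, which rest on 1 to 143 counts per library. It also limits F2rl1, with 5 to 39 counts per library, and Thbs1, with 12 to 215.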
